A study of Mus musculus with 9 samples.

Results

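The genes of sodium, calcium and potassium channels, with accessory subunits, and of glutamate and GABA receptors were followed through the open chromatin of mouse brain endothelial cells (ECs). A gene was taken where the name that the authors' peak annotation gives a peak starts with Gabr, Gria, Grin and a digit, Grik, Grm and a digit, Scn and a digit, Cacna, Cacng or Kcn, and Kcnj8, a marker of pericytes, was left out. This gave 158 of the 20035 gene names in the lists, and 1484 of 253457 peaks. Of these 158 genes, 153 encode proteins and 5 (Grin1os, Kcnd3os, Kcnmb4os1, Kcnmb4os2 and Kcnq1ot1) are noncoding transcripts. RefSeq holds 172 protein-coding genes with such names, and 19 of them had no peak named for them in any list, among them the GABA-A subunit genes Gabra3, Gabra6, Gabrd and Gabrq, the metabotropic receptor genes Grm2, Grm4 and Grm6, Grik5, Grin3b, Cacna1s, Cacna2d2 and the potassium channel genes Kcnd1, Kcng4, Kcnh4, Kcnh6, Kcnk3 and Kcnu1.

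Open chromatin was measured by Omni-ATAC-seq, in which the transposase Tn5 cuts and tags accessible DNA, on nuclei of purified brain ECs. The mice carried a Cdh5 (VE-cadherin) Cre driver, alone in WT Cre (CdH5CRE in the labels) or together with floxed Klf4 in EC-K4KO (ECK4KO), on the C57BL/6J background, and tamoxifen triggers the deletion of Klf4 in ECs. WT Cre mice gave 2 young and 2 old libraries, and EC-K4KO mice 3 young and 2 old ones. They are called controls and knockouts below. The labels give age as young or old, the names of the libraries change with age, so that age and library set cannot be told apart, and nothing in the labels says that each library came from a separate animal. The question put to the data was which of these genes, most of them known from neurons, lay near open chromatin in ECs, and whether this differed by genotype or age.

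These channels and receptors set the excitability of neurons. Sodium channels carry the upstroke of the action potential, calcium channels couple it to transmitter release, potassium channels end it, and AMPA, NMDA, kainate and GABA-A receptors turn transmitter into current. Outside neurons many of these genes are known to be kept silent by the repressor REST, which binds a site named RE1. Endothelium has channels of its own from the same families, such as the inward rectifier of Kcnj2, by which brain capillaries sense potassium, and the calcium-activated potassium channels of Kcnn3 and Kcnn4, which are known for hyperpolarizing the vessel wall.

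The lists differed widely in length, from 6157 and 9598 peaks in young controls to 23848 to 27992 in young knockouts, 32555 and 43893 in old controls, and 39079 and 45026 in old knockouts. Longer lists reach weaker peaks, so promoter counts were also made on lists cut to equal length, which keep only the top 6157 peaks by −log10 p. The depth of reads is unknown from such lists. Of 15 endothelial marker genes, 8 to 12 had a promoter peak in each library and 13 to 15 had some peak. Of 15 neuronal marker genes, none had a promoter peak in young controls, 1 to 2 in young knockouts, 2 in old controls and 4 in old knockouts. Promoter peaks of 8 mural marker genes were absent in both young groups and numbered 0 to 2 in old controls and 3 to 5 in old knockouts, and none of 8 microglial genes had one in any library. Of 8 astrocyte genes 0 to 1 had a promoter peak in either young group, 1 in old controls and 1 to 2 in old knockouts. Of 8 oligodendrocyte genes 0 to 1 did in each library. Some peak lay at 0 to 4 astrocyte genes in young controls, 5 to 6 in young knockouts, 7 in old controls and 7 to 8 in old knockouts. For neuronal genes these counts were 3 to 4, 8 to 9, 10 to 11 and 11 to 12 of 15.

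Peaks near channel and receptor genes were few in every library. Young controls had 8 and 31 of them, or 0.130% and 0.323% of the list, against 185, 141 and 154 in young knockouts (0.776%, 0.557% and 0.550%), 322 and 180 in old controls (0.734% and 0.553%) and 274 and 189 in old knockouts (0.609% and 0.484%). By group the share was 0.227 ± 0.136% (SD, n = 2) in young and 0.643 ± 0.128% (n = 2) in old controls, and 0.628 ± 0.129% (n = 3) in young and 0.546 ± 0.0884% (n = 2) in old knockouts, so that both young control libraries lay below every other library and the other groups overlapped. This separation held in the deposited lists only. On lists of equal length, with 1 to 8 such peaks each, the shares were 0.130% and 0.0325% in young controls. In the other libraries they ranged from 0.0162% to 0.114%. As a yardstick, the 158 genes make up 0.789% of the gene names. Genes with any peak numbered 8 and 26 in young controls, 87, 72 and 85 in young knockouts, 109 and 97 in old controls, and 114 and 87 in old knockouts, of 158. These shares, from 5.06% to 72.2%, were lowest in the shortest lists, as were those of all gene names, at 26.7% and 38.5% in young controls, 67.4% to 71.1% in young knockouts and 74.3% to 82.0% in the old libraries. In bulk nuclei a site open in few cells and one weakly open in many cannot be told apart.

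Promoters of these genes were seldom open. A promoter-TSS peak, the class the annotation gives a peak at or just upstream of a transcription start site (TSS), was found for 3 and 1 of the 158 genes in young controls, 12, 12 and 14 in young knockouts, 16 and 25 in old controls, and 34 and 29 in old knockouts. These are 2.00 ± 1.41 (SD, n = 2), 12.7 ± 1.15 (n = 3), 20.5 ± 6.36 (n = 2) and 31.5 ± 3.54 (n = 2) genes, and the groups did not overlap, in the order of their mean list lengths. For all gene names the groups did not overlap either, in the same order. Their shares with a promoter peak were 17.0% and 22.4% in young controls and 30.2% to 36.5% in young knockouts. They were 40.6% and 40.4% in old controls, and 42.3% and 41.3% in old knockouts. The share of the 158 genes with a promoter peak, between 0.633% and 21.5%, was below that of all gene names in 9 of 9 libraries. On lists of equal length the groups lay close together, with 1 to 3 genes in young controls and in young knockouts, 2 to 3 in old controls and 4 in each old knockout library.

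**Figure D1:**
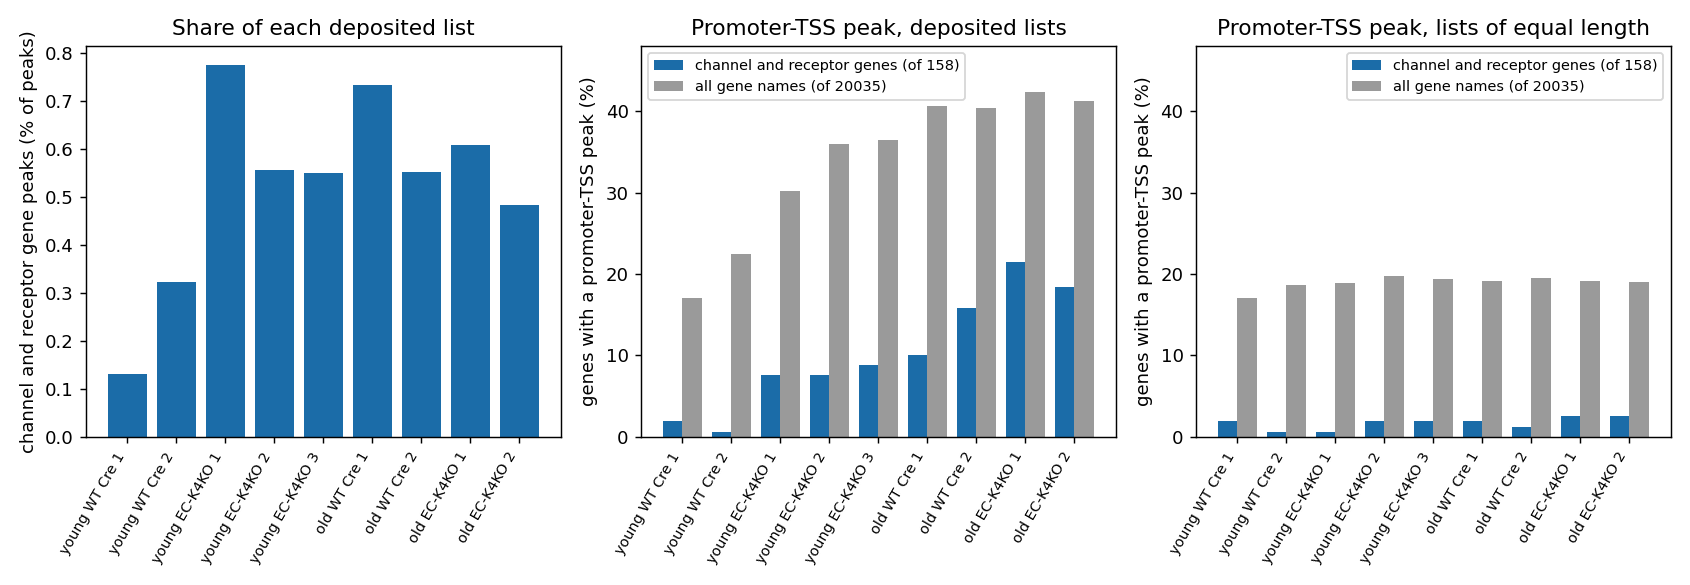
Bars give, for each of the 9 libraries, the share of peaks named for channel and receptor genes (left, % of the deposited list) and the share of genes with a promoter-TSS peak among the 158 genes (blue) and all 20035 gene names (grey), in deposited lists (middle) and in lists of 6157 peaks (right). The blue bars stay below the grey ones in every library, and they span 0.633% to 21.5% in the deposited lists and 0.633% to 2.53% in the lists of equal length.

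Among the strongest 6157 peaks of the libraries only 13 of the 158 genes appeared at all, and 7 of these in 1 library each. Kcnj2 was the only one present in all 9 of these lists. Kcnab2, Kcnk12 and Kcnq1ot1 were present in 6, Kcnj15 in 4 and Cacng2 in 3. No receptor gene recurred there, since Gabrg3 and Grin2b each had a single intron peak, both in young control replicate 1, whose whole deposited list enters this comparison.

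The peaks lay mostly outside promoters. Over all libraries 43.4% of the 1484 peaks were intergenic, 40.2% intronic, 9.91% promoter-TSS and 5.93% exonic, against 34.1%, 33.2%, 24.5% and 6.87% of all peaks. The promoter share was below that of all peaks in 9 of 9 libraries, at 37.5% and 3.23% in young controls (all peaks 55.4% and 47.0%), 6.49% to 9.09% in young knockouts (25.6% to 28.8%), 5.28% and 13.9% in old controls (18.8% and 25.2%) and 12.4% and 15.3% in old knockouts (19.1% and 21.5%). Intergenic peaks lay far from the gene they are named for, with a median distance of 46.6 to 135.3 kb in the 8 libraries that had any, against 32.2 to 55.9 kb for all intergenic peaks of those libraries. A gene name on such a peak means only that its start site is the nearest.

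**Figure D2:**
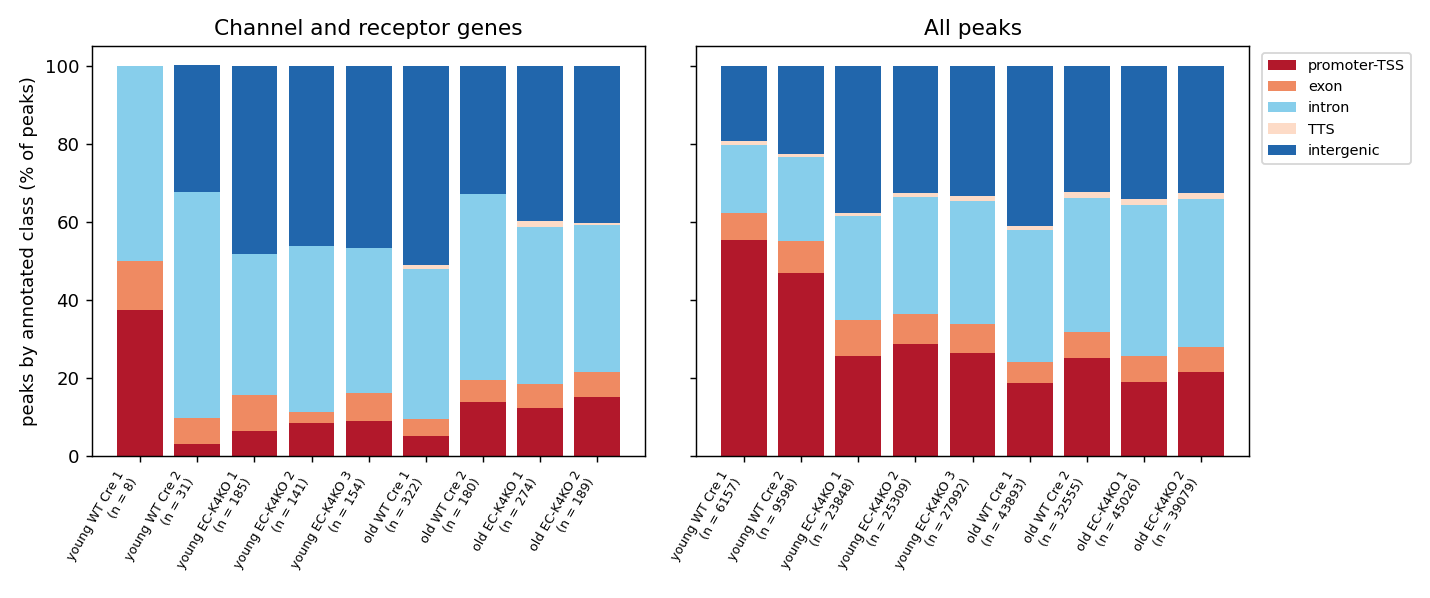
Stacked bars give the percentage of peaks in each annotated class per library, for channel and receptor genes (left) and all peaks (right), with the number of peaks under each bar. Promoter-TSS peaks (red) take a smaller part on the left in all 9 libraries, and the first bar on the left rests on 8 peaks.

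They were also weak. Ranked by −log10 p within its library, where 0 is the strongest peak and 100 the weakest, the median channel or receptor peak stood at 82.4 and 85.9 in young controls, 70.0, 80.8 and 80.6 in young knockouts, 75.5 and 80.3 in old controls and 75.6 and 71.3 in old knockouts, where the median of all peaks is the midpoint by construction. The same held within these classes, with 1 exception among promoters. Promoter peaks of these genes had a median rank of 44.4 to 68.3 in the 7 libraries outside young WT Cre, against 15.4 to 21.7 for all promoter peaks of those libraries. In young WT Cre the 3 promoter peaks of replicate 1 had a median of 78.6 (all promoter peaks 37.6), and the single one of replicate 2, Kcnj2, stood at 19.0 (all 33.3). Intron peaks ranked lower than all intron peaks by 11.6 to 25.0 percentile points in 9 of 9 libraries, exon peaks by 29.2 to 41.4 points in 9 of 9, and intergenic peaks by 2.50 to 16.7 points in 8 of 8. Of these peaks 9.68% to 73.5% had a q under 0.01, against 46.8% to 89.2% of all peaks.

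**Figure D3:**
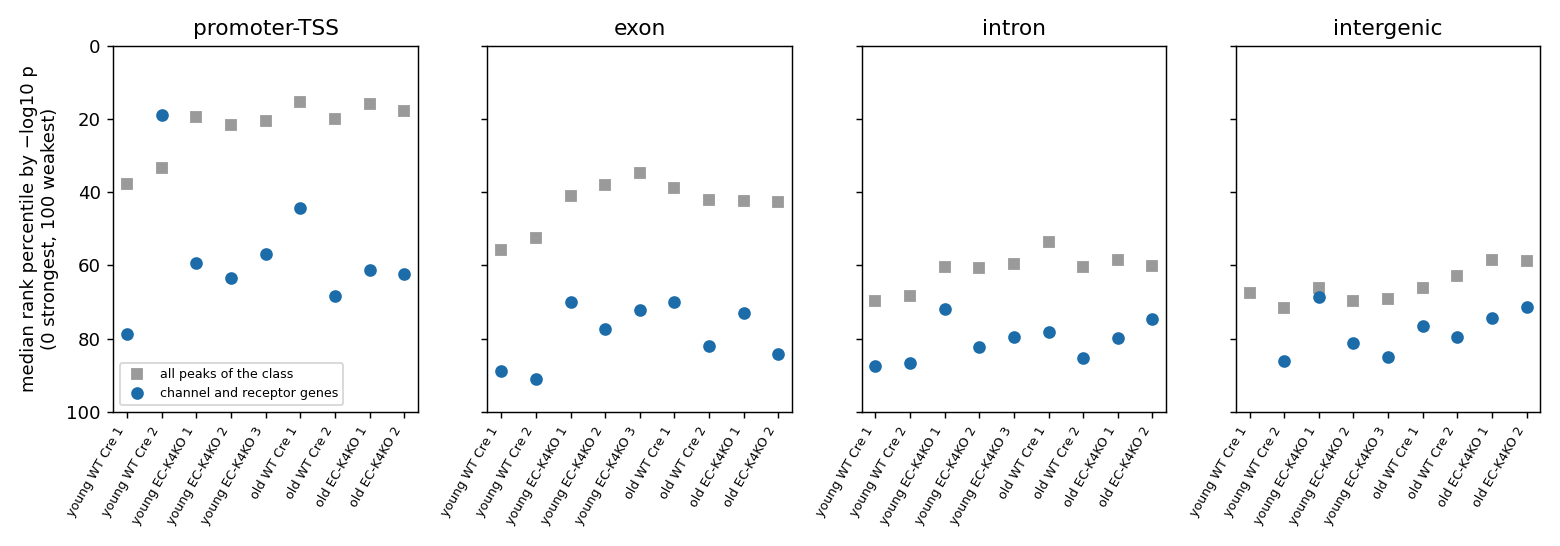
Points give the median rank percentile by −log10 p (0 strongest, at the top, to 100 weakest) of channel and receptor peaks (blue circles) and of all peaks of the same class (grey squares) in each library. The blue points lie below the grey ones except for promoter-TSS in young WT Cre replicate 2, where the blue point is 1 peak, and there is no intergenic blue point for young WT Cre replicate 1.

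Few of these regions recurred. Peaks that share at least 1 bp were merged over libraries into 92495 regions, 999 of them with a channel or receptor peak, and 805 of the 999 (80.6%) came from 1 library, against 57.3% of all regions. Regions in 5 or more libraries were 44 (4.40%), against 22.6% of all. By class, 84.1% of intron and 83.4% of intergenic regions came from 1 library (all regions 57.2% and 69.7%), and 38.9% of 54 promoter regions did (all 8.95%). Within a group, 1 of 38 regions (2.63%) was found in both young controls, 11 of 433 (2.54%) in all 3 young knockouts, 76 of 426 (17.8%) in both old controls and 131 of 330 (39.7%) in both old knockouts. The same shares over all regions were 45.5%, 25.0%, 48.6% and 66.3%.

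**Figure D4:**
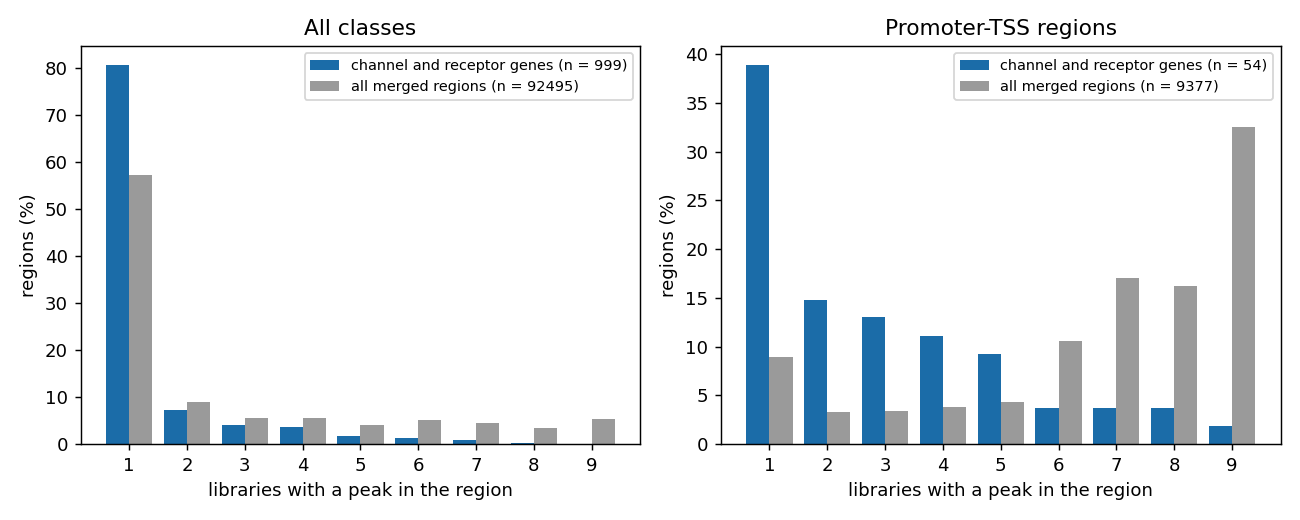
Bars give the percentage of merged regions with a peak in 1 to 9 libraries, for channel and receptor genes (blue) and all regions (grey), over all classes (left) and for promoter-TSS regions (right). Blue bars pile up at 1 library in both panels, and 1 region of 999 reaches 9.

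Receptor genes had the least recurrent peaks. The 35 glutamate and GABA receptor genes had 288 regions, of which 266 (92.4%) came from 1 library and 2 were in 5 or more. Among 34 sodium and calcium channel genes the single-library share was 70.1% of 127 regions, and among 89 potassium channel genes it was 77.1% of 584. Receptor genes with a promoter peak in any library numbered 8 of 35, with the kainate receptor gene Grik4 in 5 libraries, the GABA-A gene Gabra2 in 2, and the others in 1 each. None of the 7 NMDA receptor names had one, yet the most recurrent receptor region was an exon peak 540 bp from the start of Grin2d at chr7:45865904-45866432. It was absent in young controls, stood at rank 68.4, 31.5 and 22.2 in young knockouts, 31.5 and 30.7 in old controls, and 17.1 and 22.2 in old knockouts.

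The clustered receptor and channel genes showed scattered peaks. In the GABA-A cluster on chromosome 5 (Gabra2, Gabra4, Gabrb1 and Gabrg1) 21 of 22 regions came from 1 library, and no region was in more than 2. The sodium channel cluster on chromosome 2 (Scn1a, Scn2a1, Scn3a, Scn7a and Scn9a) had 16 of 18 in 1 library. Its most recurrent region lay 1840 bp upstream of Scn2a1, an axonal sodium channel gene, and was open in 6 libraries at ranks of 16.6 to 45.3, namely 2 of 3 young EC-K4KO and all old libraries.

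Genes with many regions were mostly long. Grm7, a presynaptic glutamate receptor gene of 921.9 kb, had 33 regions, 32 of them from 1 library. Grin2a had 26 (22 from 1 library), Kcnh8 25 (23), Gabrg3 23 (21) and Kcnj3 23 (22). Kcnj2, at 10.7 kb, had 22 regions with 11 from 1 library, and Kcnj15, at 42.7 kb, had 21 with 9. The 153 coding genes had a median length of 61.0 kb, against 21.7 kb for 17129 coding genes in the lists, and 40.5% of them exceeded 100 kb (all 13.5%). Across genes, length and number of regions went together in both sets (Spearman's rho 0.478 over the 153 genes and 0.419 over the 17129), which is given as a description because neighbouring genes share peaks and libraries. Within length classes the share with a promoter peak in some library stayed below that of all coding genes, at 40.3% of 62 genes over 100 kb (all 62.3% of 2310), 27.8% of 54 genes of 20 to 100 kb (all 67.0%) and 37.8% of 37 genes up to 20 kb (all 55.5% of 8148).

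Kcnj2 stood apart. Its promoter region, chr11:111065733-111066449, was the only region of the 999 present in all 9 libraries, and Kcnj2 was the only one of the 158 genes with a promoter peak in all 9, as 2279 of all gene names (11.4%) had. It ranked at 81.9 and 19.0 in young controls, 16.1, 22.5 and 14.0 in young knockouts, 5.86 and 10.8 in old controls, and 7.06 and 8.60 in old knockouts. The deposited fold enrichment was 3.96 and 6.35, then 5.23, 6.86 and 8.46, then 8.70 and 8.50, then 9.37 and 9.18 in the same order. The old libraries were all higher than the young ones. The median fold over the 4872 regions present in all libraries also varied, between 5.02 and 8.72 in the young and between 8.27 and 9.90 in the old libraries. The start of Kcnj2, from RefSeq on GRCm38.p6 (chr11:111065914-111066193, plus strand), is shown because it is the most recurrent open region of the set. Capitals mark its match to the KLF motif CCNCNCCC, which lies on the opposite strand.

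Kcnj2: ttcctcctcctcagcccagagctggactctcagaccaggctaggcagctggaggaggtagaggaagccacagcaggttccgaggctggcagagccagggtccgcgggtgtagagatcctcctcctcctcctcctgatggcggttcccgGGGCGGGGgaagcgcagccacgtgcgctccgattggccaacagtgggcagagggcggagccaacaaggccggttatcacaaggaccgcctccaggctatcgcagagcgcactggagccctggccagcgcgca

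Around Kcnj2 further regions recurred. One 104.3 kb downstream, chr11:111170098-111170669, was open in 7 libraries, all outside young WT Cre, at ranks of 14.7 to 44.0, and one 11.9 kb upstream in 6. Downstream of the gene 17 regions carried its name, 40.4 to 738.7 kb away, and 8 of them were in 2 or more libraries. The interval to the next protein-coding gene of RefSeq, Gm11677, is 645.1 kb long, and a region named for Kcnj2 in 5 libraries lies past it, at 726.2 kb. Kcnj16, the neighbour of Kcnj2 that encodes an inward rectifier subunit, had 2 intron regions in 6 libraries each, and Kcnj15, which encodes another, had an intergenic region 35.2 kb upstream (chr16:95221989-95222663) in 7, with ranks of 6.35 to 12.8 in the old libraries and 33.8 and 32.4 in young knockout replicates 2 and 3, and a weaker one in replicate 1. The inward rectifiers held 14 of the 44 regions that were in 5 or more libraries.

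Kcnn3 and Kcnn4, the calcium-activated channels of endothelium, were weakly marked. The Kcnn3 promoter peak was found in old WT Cre replicate 2 and both old EC-K4KO libraries, at ranks 58.5, 55.4 and 59.6, and not in the other 6. Kcnn4 had no promoter peak, and a region 5042 bp upstream of it was open in all 4 old libraries, at ranks 67.8, 78.2, 70.2 and 88.1, and in no young one.

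Besides Kcnj2, 3 regions were found in 8 libraries, each missing in 1 young WT Cre library. They were the promoter of Kcnq1ot1, the antisense noncoding RNA of the imprinted Kcnq1 domain (chr7:143296224-143296874), the promoter of Kcnab2, a beta subunit of voltage-gated potassium channels (chr4:152477326-152478177, where some libraries name the neighbouring gene Nphp4 for the same region), and a region 79.7 kb upstream of Kcnk12, which encodes a tandem-pore potassium channel (chr17:87877340-87878107). The Kcnq1ot1 promoter ranked at 78.6 in young control replicate 1, 30.1, 25.3 and 17.8 in young knockouts, 7.13 and 12.9 in old controls, and 4.91 and 3.92 in old knockouts. The Kcnk12 region ranked at 70.0 in young control replicate 2, 27.2, 19.8 and 18.5 in young knockouts, 7.38 and 9.85 in old controls, and 7.01 and 6.59 in old knockouts. The Kcnab2 promoter ranked at 63.9 in young WT Cre replicate 1, between 20.6 and 26.7 in young knockouts and between 9.81 and 19.2 in the old libraries. In all 3 regions every old library had a lower percentile than every young one, on lists that were also longer, and the part of list length in this was not tested. Below are the RefSeq promoter of Kcnq1ot1 (GRCm38.p6, chr7:143296498-143296797, minus strand) and the central 300 bases of the Kcnk12 region (chr17:87877574-87877873, minus strand, that of the gene), neither of which holds any of the motifs searched.

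Kcnq1ot1: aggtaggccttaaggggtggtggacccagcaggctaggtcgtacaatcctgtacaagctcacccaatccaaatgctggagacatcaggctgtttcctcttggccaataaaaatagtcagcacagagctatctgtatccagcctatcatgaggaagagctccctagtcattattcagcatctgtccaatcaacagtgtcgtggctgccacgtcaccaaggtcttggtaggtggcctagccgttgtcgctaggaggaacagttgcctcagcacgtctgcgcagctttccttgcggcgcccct
Kcnk12: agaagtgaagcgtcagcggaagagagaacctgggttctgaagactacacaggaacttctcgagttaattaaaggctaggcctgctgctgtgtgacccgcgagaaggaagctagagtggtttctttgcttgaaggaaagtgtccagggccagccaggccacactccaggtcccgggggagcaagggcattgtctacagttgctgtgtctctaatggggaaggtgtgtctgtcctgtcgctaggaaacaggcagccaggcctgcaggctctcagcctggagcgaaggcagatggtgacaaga

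A further 8 regions were in 7 libraries. They included the promoter regions of Cacng2, which encodes stargazin, the AMPA receptor partner, and Kcnt2, a sodium-activated potassium channel gene, an intron of Kcnq1, and the start of Scn3b, a sodium channel beta subunit gene. Of these 8, 7 were missing in both young control libraries and present in every other library. The other, a region 132.5 kb from Cacng3, was missing in young control replicate 1 and young knockout replicate 1. In all, 22 genes had a promoter peak in 3 or more libraries (13.9%, against 43.4% of all gene names) and 8 in 5 or more (5.06%, against 35.2%). Of the 56 genes with a promoter peak in any library, 31 (55.4%) had it only in old, 6 (10.7%) only in young and 19 (33.9%) at both ages. Of the 11168 gene names with a promoter peak these shares were 16.1%, 8.73% and 75.2%, and the old lists were longer than the young ones. The 11 genes with a promoter peak in all 4 old libraries (6.96%, against 32.2% of all gene names) were Cacna1a, Cacng2, Kcna7, Kcnab2, Kcne3, Kcnj2, Kcnk5, Kcnk6, Kcnn2, Kcnq1ot1 and Kcnt2.

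**Figure D5:**
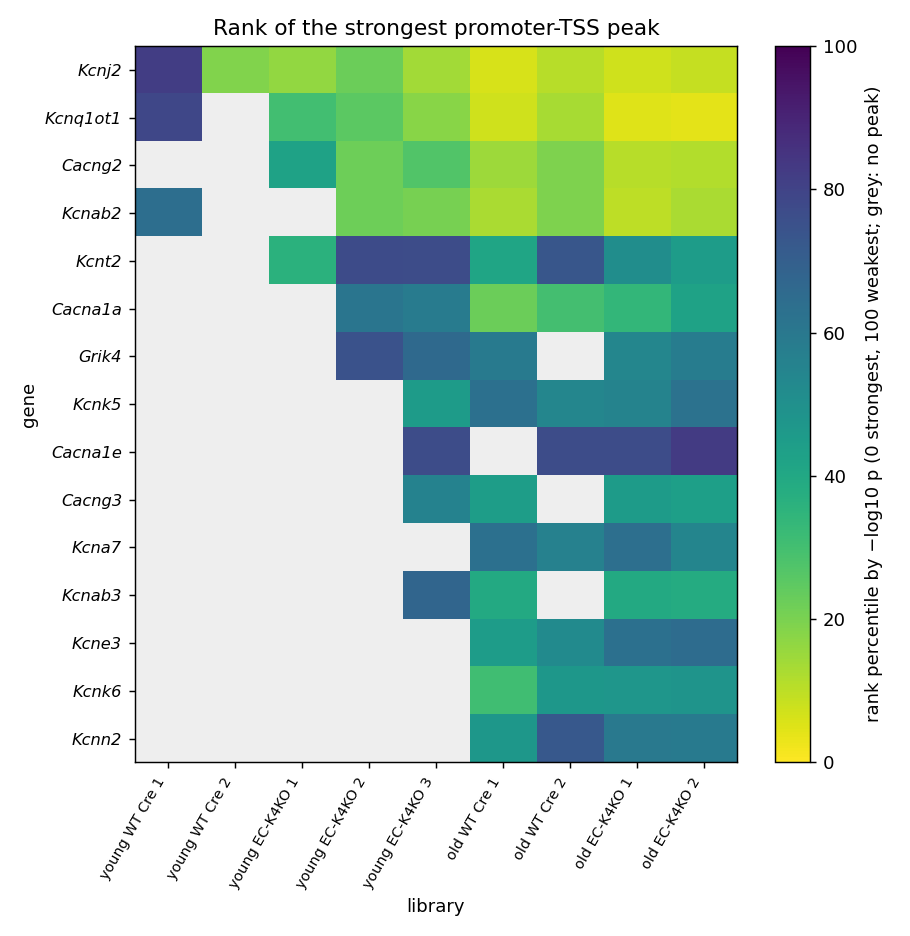
Colours give the rank percentile by −log10 p (0 strongest, yellow, to 100 weakest, dark) of the strongest promoter-TSS peak of each of the 15 genes with such a peak in 4 or more of the 9 libraries, and grey means no peak. Kcnj2 fills its row, young WT Cre is nearly empty, and most genes appear from young EC-K4KO or old WT Cre on.

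Promoters were then compared between groups. A gene was called gained where every library of the group had a promoter-TSS peak for it and no library of the other group had one, and lost in the reverse case. Within such a contrast a single gene has no test that can pass, as the smallest exact permutation p is 0.33 for 2 against 2 and 0.1 for 3 against 2 libraries, and presence was not tested over all 9 libraries. The call rests on the annotated class, which can differ between libraries for the same region, so it was also made by region. Then a gene counted as present wherever any peak lay in a region that held a promoter-TSS peak of the gene in some library. Between young EC-K4KO and young WT Cre, 2 of the 158 genes were gained, Cacng2 and Kcnt2 (1.27%, against 5.76% of all gene names), and 0 were lost (all 0.459%). Cacng2 ranked at 42.2, 22.1 and 27.2 in the 3 young EC-K4KO libraries, and Kcnt2 at 36.1, 77.1 and 76.7. By region 3 genes were gained, these and Scn3b (1.90%, against 9.26% of all gene names). By old WT Cre against young WT Cre 8 genes were gained (5.06%, against 14.9%) and 0 lost (all 0.654%). The 8 were Cacng2 and Kcnt2 again, Cacna1a, the pore of presynaptic calcium channels, the tandem-pore genes Kcnk5 and Kcnk6, the voltage-gated Kcna7, the accessory subunit gene Kcne3 and the calcium-activated Kcnn2. By region 11 genes were gained (6.96%, against 18.5%), these 8 and Kcna5, Kcnd3os and Scn3b. These 2 contrasts share the young WT Cre libraries and their lists of 6157 and 9598 peaks.

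By genotype in old mice, 2 genes were gained in EC-K4KO, Kcnd3os, antisense to the Kcnd3 gene, and Kcnh1, a voltage-gated channel gene (1.27%, against 1.34% of all gene names), and 0 were lost (all 0.958%). The share was near that of all genes. The Kcnd3os region had a peak of another class in both old WT Cre libraries, at ranks 79.4 and 88.8, so that only its class differed. By region 3 genes were gained (1.90%, against 0.948%), Kcnh1, Kcnh3 and Cacna2d1. The Kcnh1 promoter ranked at 64.6 and 54.9 and that of Kcnd3os at 68.6 and 78.7 in old EC-K4KO, in the weaker part of those lists. By old against young EC-K4KO 11 genes were gained (6.96%, against 3.11%) and 0 lost (all 0.494%). Among them were Kcna7, Kcne3, Kcnk6 and Kcnn2, also gained with age in WT Cre, and Cacna1g, Kcnd3os, Kcnh1, Kcnn3 and Kcnq1. Of these, 4 had a peak of another class in the same region in young EC-K4KO, Kcnk6 at ranks 72.8 and 58.7 in replicates 2 and 3, Kcnn2 at 44.8 and Kcnq1 at 83.3 in replicate 1, and Kcnd3os at 98.2 in replicate 3. By region 8 genes were gained (5.06%, against 2.59%), and these 4 were not among them. Calls by class were also counted among genes with a promoter peak in either group. Against young WT Cre, 2 of 25 were gained in young EC-K4KO (all 12.3%) and 26.7% of 30 in old WT Cre (all 31.0%). Both shares were below those of all gene names. In old EC-K4KO against old WT Cre 2 of 50 were gained, a share above that of all (2.64%). In old against young EC-K4KO the 11 by class were 22.0% of 50, against 5.97% of 10453. In this contrast the lists held 23848 to 27992 peaks in young and 39079 and 45026 in old EC-K4KO, and the gained promoters named here ranked between 42.7 and 78.7 in the old knockouts. On lists of equal length 0 genes were gained by class, and the share of all gene names gained there was not computed. In the same contrast 0 of 8 mural marker genes had a promoter peak in young knockouts and 3 to 5 in old ones, and of 15 neuronal marker genes 1 to 2 and 4 did, and their part in the result was not tested.

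The same rule was applied to regions of every class. In young EC-K4KO against young WT Cre 7 of 999 regions were gained (0.701%, against 4.07% of all regions) and 0 lost (all 0.00108%). In old against young WT Cre 71 were gained (7.11%, against 17.4%) and 0 lost (0.00108%). In old EC-K4KO against old WT Cre 32 were gained (3.20%, against 4.76%) and 5 lost (0.501%, against 0.427%). In old against young EC-K4KO 70 were gained (7.01%, against 11.4%) and 0 lost (0.0162%). All 4 gained shares were smaller than those of all regions. A region from 1 library cannot be called gained, however, and 80.6% of the 999 regions came from 1 library, against 57.3% of all. The lower shares therefore follow in part from the rule, and shares among regions of 2 or more libraries were not compared.

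The strength of regions was tested first where every library had them. The log2 fold enrichment of the 4872 regions present in all 9 libraries, centred on each library's median, was fitted with limma over 4 group means, and p-values were adjusted (Benjamini-Hochberg) over all of them. The set held 1 channel or receptor region, the Kcnj2 promoter. Its centred log2 fold was −0.05 ± 0.42 (SD, n = 2) in young and 0.01 ± 0.09 (n = 2) in old controls, and −0.13 ± 0.18 (n = 3) in young and −0.07 ± 0.01 (n = 2) in old knockouts. By genotype within age it differed by −0.09 ± 0.12 (SE, EC-K4KO minus WT Cre, limma adjusted p = 0.76), and 0.411% of the regions passed the threshold of 0.05. By age within genotype it differed by 0.06 ± 0.12 (old minus young, limma adjusted p = 0.727), and 33.6% of regions passed. The interaction of age and genotype was 0.00 ± 0.24 (limma adjusted p = 0.997), and 0% of regions passed it, with 409 at an unadjusted p under 0.05. No change of the Kcnj2 promoter relative to other constitutive regions was therefore detected at this spread, which was largest in young controls.

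With regions of at least 8 libraries (7992) and the missing value left out of the fit, 2 channel regions passed for age, the Kcnq1ot1 promoter at 0.61 ± 0.13 (SE, old minus young, limma adjusted p = 0.00418) and the Kcnk12 region at 0.39 ± 0.12 (adjusted p = 0.0228), where 9.73% of these regions were higher in old. The Kcnab2 promoter (0.14 ± 0.12, limma adjusted p = 0.391) and the Kcnj2 promoter (0.02 ± 0.13, limma adjusted p = 0.922) did not pass. The young WT Cre mean of the first 3 of these regions is a single library, assumed to vary like the others. By genotype none of the 4 passed in the same limma fit, with the Kcnq1ot1 promoter closest at 0.25 ± 0.13 (adjusted p = 0.411).

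The promoters of these genes were richer in GC than promoters at large. RefSeq gave 151 promoter windows for 114 of the 158 genes, each from 250 bases before to 50 after a start site, with a median GC content of 57.7% against 52.7% for all 32841 windows. A peak in any library covered 28.5% of the 151 windows and 41.3% of all. Among windows over 60% GC it covered 42.4% of 66, against 81.5% of 9409, and in 5 or more libraries 6.06%, against 68.9%. Among windows of 45% to 60% GC it covered 20.5% of 73, against 34.3%.

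Short motifs were searched by their exact letters on both strands of these windows. The KLF motif CCNCNCCC was in 66.9% of the 151 windows (49.5% of all), 81.4% of the 43 under a peak (69.4% of all windows under a peak) and 61.1% of the 108 under none (35.5%). Its fixed letters are all C, and more of these windows exceeded 60% GC. These were 43.7% of the 151 (all 28.7%), 65.1% of those under a peak (56.6%) and 35.2% of those under none (9.03%). Motif shares at equal GC were not compared, so the higher KLF shares may not be read apart from GC. The ETS motif CCGGAAGT was in 0 of 151 (all 3.89%), the AP-1 motif TGANTCA in 3.97% (all 7.81%), the CRE motif TGACGTCA in 0 (all 1.79%) and AGGGGGC, part of the CTCF site, in 14.6% (all 10.6%). Of the arms of RE1, TTCAGCACC was in 0 (all 0.371%) and GGACAGCG in 2 windows, of Gria2 and Kcnj4 (1.32%, all 1.26%), neither under a peak. These letters are only the most conserved part of RE1, so that a window without them says nothing about REST. The Kcnt2 promoter, gained in both contrasts with young WT Cre, holds none of these motifs (GRCm38.p6, chr1:140245468-140245767, plus strand).

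Kcnt2: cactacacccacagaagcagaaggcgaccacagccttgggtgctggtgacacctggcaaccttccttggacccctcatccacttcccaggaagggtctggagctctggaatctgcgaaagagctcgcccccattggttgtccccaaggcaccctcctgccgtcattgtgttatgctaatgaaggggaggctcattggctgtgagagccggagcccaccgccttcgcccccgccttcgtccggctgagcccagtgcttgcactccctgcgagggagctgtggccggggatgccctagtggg

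The other promoter gained in both contrasts, that of Cacng2, held RE1 letters. Its region at chr15:78119786-78120117 lies 671 bp upstream of the start the annotation uses and carries the left arm TTCAGCACC 2 times, both on the strand of the gene. A stretch of 103 bases of it (chr15:78119999-78120101, minus strand) holds one copy, in capitals, and was ended where it runs into an annotated 5′ UTR.

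Cacng2: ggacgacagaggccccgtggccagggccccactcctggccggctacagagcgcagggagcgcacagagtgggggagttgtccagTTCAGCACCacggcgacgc

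After this sequence was read, all 92495 regions were searched for the same letters. The left arm occurred 2 or more times in 11 regions (0.0119%), and 2 of these 11 were channel regions (0.200% of 999). One was the Cacng2 promoter, which was bound to be found because its sequence had prompted the search. The other was the promoter region of the related gene Cacng3 (chr7:122670871-122671686). The Cacng3 region was open in 4 libraries, 1 young EC-K4KO, 1 old WT Cre and both old EC-K4KO. The copies are printed with 5 bases before and 16 after the arm, the arm in capitals, the Cacng2 copies from the minus strand (chr15:78119827-78119856 and chr15:78119993-78120022) and the Cacng3 copies from the plus strand (chr7:122670876-122670905 and chr7:122670941-122670970).

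Cacng2 copy 1: tccgtTTCAGCACCacggcgatgctgtagc
Cacng2 copy 2: tccagTTCAGCACCacggcgacgcagtagg
Cacng3 copy 1: gacccTTCAGCACCcggagttcctagacta
Cacng3 copy 2: gtcccTTCAGCACCacggacctccaacgac

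Over 21 bases from the start of the arm of which the 9 of the arm are shared by the search itself, the Cacng2 copies share 19 and the second Cacng3 copy shares 15 with each of them. The first Cacng3 copy shares 11 and 13 with the Cacng2 copies and 12 with the second Cacng3 copy. Either arm of RE1 was found in 20 of the 999 regions (2.00%, against 2.11% of all regions), in 1.24% of those from 1 library (all 0.776%), 5.33% of those in 2 to 4 libraries (all 1.96%) and 4.55% of those in 5 or more (all 5.62%). In the groups of 1 library and 2 to 4 libraries the median widths were 246.0 and 504.0 bp, against 244.0 and 434.0 bp for all regions. Besides Cacng2 the only one of the 20 in 5 or more libraries was the Scn3b start, with the right arm.

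Genes that work with these channels and receptors gave a mixed picture. Of 30 partner genes, 3 had a promoter peak in each young control library, 4 to 5 in young knockouts, 5 to 6 in old controls and 6 to 7 in old knockouts. The scaffold genes Homer1 (mean promoter rank 8.54) and Gphn, which encodes gephyrin (16.5), and the REST corepressor gene Rcor1 (5.45) were open in 9 of 9 libraries, and Nrxn2 (28.8) in 6. Promoter peaks were absent in all libraries for Dlg4, Shank1, Shank2, Shank3, Nlgn1, the transporter genes Slc17a6, Slc17a7 and Slc32a1, the GABA-B receptor genes Gabbr1 and Gabbr2, and Rest itself, which had another peak in 6 libraries.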

How the data were processed

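Omni-ATAC-seq was run by the authors on nuclei of flow-sorted brain ECs. Per the study's methods, reads were trimmed, mapped with Bowtie2 to mouse GRCm38 (mm10), cleared of duplicates, and peaks were called in each library alone with the broad mode of MACS2 on paired fragments. The deposited peak lists give a fold enrichment over the local background, a −log10 p and −log10 q from MACS2, and a score, which the authors' caller wrote as 10 times the −log10 q (so in 100.0% of peaks). The lists end at a q of 0.0999. HOMER named the nearest gene and the class of each peak. No reads were analysed here, so the depth is unknown, and the authors' DESeq2 test on reads was not rerun.

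Peaks sharing at least 1 bp were merged over the 9 libraries into regions, and a region took the class of its strongest peak. Ranks run from 0 (strongest) to 100 (weakest) by −log10 p. Strength was tested with limma 3.58.1 in R 4.3.3, and the rest was computed in Python 3.11.15 with numpy 2.4.6, pandas 2.3.3 and matplotlib 3.10.9. The fit was tested on simulated data first. Promoter windows came from RefSeq (GRCm38.p6). Alternatives were q under 0.01, equal lists, any class, a centre within 1000 bp of the TSS, other scalings, regions in at least 8 libraries, an exact permutation test and leaving out each library. Members and gene lists were chosen with earlier results of these data known. Genes were named by presence in all libraries, the best ranks of each family, calls in a contrast, gene clusters, Kcnj2, Kcnn3 and Kcnn4, absence of any peak and most peaks. Genes named beyond that, Kcnj16, Gm11677 and the further called genes among them, the search of regions for RE1 letters, and the calls by promoter region, were chosen after their values were seen. Replicates are libraries with no stated animal, so p-values measure the spread between libraries. Some genes, and a part of the clusters, are not reported here.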

Additional observations from a re-analysis of the deposited data

Results flagged for a closer look

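A pair of measures moved in opposite directions under the same contrast, with every library of a group on the same side, and none of these differences was tested. The median fold enrichment of channel and receptor peaks differed by -0.632 between young knockouts and young controls and by 0.780 between old knockouts and old controls. By age it differed by -0.705 in controls (old minus young) and by 0.707 in knockouts. All peaks moved the same way. The group means of the median fold were 3.85, 3.22, 3.15 and 3.93 for channel and receptor peaks, and 4.55, 4.05, 4.06 and 5.05 for all peaks, in young controls, young knockouts, old controls and old knockouts, a pattern that these genes share with the lists as a whole. The intergenic share of these peaks was 25.7 percentage points higher in old than young controls, while in knockouts the difference was -7.00 points, and the young control values rest on 8 and 31 peaks. The intergenic share of all peaks had group means of 20.8% in young and 36.6% in old controls, and of 34.5% in young and 33.4% in old knockouts. Groups held 2 or 3 libraries, too few for a search for outlying libraries.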

How the results depend on the processing

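The counts of promoters gained or lost moved with list length and when single libraries were left out. Leaving out a library, or asking for at least 2 libraries, loosens the rule, so that such counts can only stay or rise. The part of list length was not tested. Among these alternatives, the share of all gene names called was computed only for gains by promoter region. The other alternative counts therefore cannot show whether channel and receptor genes were called more or less often than genes at large. Gained promoters in young knockouts against young controls (2 as reported) were 0 on equal lists, 22 with any class, 6 with at least 2 libraries, and 2 to 5 without single libraries. With any class, here and below, a gene counted by any peak named for it, near or far, so those are not counts of promoters. In old against young controls (8) they were 0, 60 with any class, and 8 to 22 without single libraries, with 22 without old control replicate 1 and 13 without replicate 2. In old knockouts against old controls (2) they were 1, 6 with any class, and 5 to 13 when a library was left out (9 and 13 without old knockout replicates 1 and 2, 5 and 8 without old control replicates 1 and 2), and the lost ones (0) were 5 with any class and 0 to 7 (7 and 2 without old control replicates 1 and 2). In old against young knockouts (11) gained ones were 0 on equal lists and 11 to 19 (17 and 19 without old knockout replicates 1 and 2), and lost ones (0) were 6 with any class. Counted by promoter region whatever the class, an alternative chosen after seeing the data, the 4 gained counts were 3, 11, 3 and 8, each within 1.5 times. Genes with a promoter peak went in young knockouts from 12.7 to 7.0 with q under 0.01, 2.33 on equal lists and 22.0 within 1000 bp of a TSS. In old knockouts they went from 31.5 to 26.0, 4.0 and 39.0, and in old controls from 20.5 to 2.50 on equal lists. Regions in all libraries (1) were 0 with q under 0.01 and 1 to 3 without single libraries, with 2 and 3 without young control replicates 1 and 2. The mean of the median ranks was 67.7 on equal lists, against 78.0.

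Of all regions, 20 changed by genotype, and these were 196 with −log10 p, 3 with quantile normalization, 0 without centring, 0 in at least 8 libraries, 306 at the smallest p of the exact permutation test and 0 to 490 when a library was left out (490 without young knockout replicate 1). With the replicate block they were 0. Deviations of same-numbered libraries correlated at -0.00 to 0.16, over 0.1 in 1 of 12 pairs. Of 9 libraries, 7 correlated best with their own number, and young knockout replicate 3 has no partner. In a group of 2 libraries the deviations mirror each other, so these correlations cannot decide whether the numbers pair samples. With the block, 1829 regions changed by age, against 1639 without it, and 0 channel regions did. By age 1639 regions changed, 2913 without centring and 880 to 1737 when a library was left out (962 and 880 without old knockout replicates 1 and 2). At the smallest p of the exact permutation test there were 794. That p is 0.0167 and unadjusted, for age as for genotype, so the 794 and 306 are not counts at the adjusted threshold. Of channel regions 0 changed by age, 1 without centring and 2 in at least 8 libraries. The genotype difference of the Kcnj2 promoter turned to 0.27 without centring and ranged from -0.23 to 0.06 without single libraries, the latter without young control replicate 2. Its age difference was -0.09 without young control replicate 1, 0.21 without replicate 2, and 0.62 without centring, where it passed the threshold.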
